A study of Mus musculus with 14 samples.

Results

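The glycine and GABA synapse genes were a set of 26 genes out of the 19215 in the RNA-seq gene tables of whole mouse spinal cord (WSC), together with 10 of 13189 cassette exons, which are internal exons that a transcript includes or skips. The genes were taken by symbol and the exons by the NCBI gene number in the exon names. The set was chosen for what the genes do and not for their values, although earlier results of these data were known. It held 5 glycine receptor subunits, 2 glycine transporters, the vesicular transporter, 2 GABA-synthesizing enzymes, 1 GABA transporter, 5 alpha, 2 beta, 2 gamma and 3 other subunits of the GABA-A receptor, 2 GABA-B receptor subunits and the scaffold protein gephyrin.

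The study asked where the neuronal RNA-binding proteins NOVA1 and NOVA2 bind in spinal motoneurons (MN) as compared with WSC. Binding was read by HITS-CLIP, in which protein and RNA are crosslinked by UV light, the protein is immunoprecipitated, and the attached RNA fragments are sequenced as CLIP tags. RNA levels and exon inclusion in WSC were read by RNA-seq in 2 libraries, 1 from a male and 1 from a female mouse. RNA levels of MN were not analysed here.

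The MN group had 8 CLIP libraries, 4 each from lines #6 and #17 of hemizygous Chat:GFP-Nova mice on C57BL/6. Both lines carry a bacterial artificial chromosome that expresses AcGFP-tagged NOVA2 from the choline acetyltransferase (Chat) gene, and complexes were pulled down with the anti-GFP antibodies 19C8 and 19F7. Each of these libraries was made from the pooled spinal cords of several mice. The WSC group had 4 CLIP libraries of endogenous NOVA from wild type C57BL/6 spinal cord, pulled down with an anti-NOVA serum. All CLIP mice were 3 months old. The RNA-seq mice were 12 weeks old, on B6/SJL, and carried the Tg(SOD1)2Gur/J transgene, the wild type human SOD1, so neither RNA-seq library comes from the mice used for CLIP. The MN and WSC libraries differ in protein, antibody and mouse line as well as in cell type, and these cannot be told apart in the comparison.

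Glycine and GABA are the main fast inhibitory transmitters of the spinal cord. Inhibitory interneurons make GABA with the enzymes encoded by Gad1 and Gad2, take glycine back up with GlyT2 (Slc6a5), and load either transmitter into vesicles with the transporter encoded by Slc32a1. Motoneurons receive these signals through glycine receptors and GABA-A receptors, which are chloride channels held at the synapse by gephyrin (Gphn), and through the slower G protein-coupled GABA-B receptors. NOVA proteins bind clusters of the 4-letter motif YCAY and control splicing of neuronal transcripts, among them transcripts of inhibitory synapse proteins.

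The sequences below are those on which the values further down turn. They were read from mm9 on the strand of the gene, and capitals mark the 4 forms of YCAY, which are TCAT and TCAC and, with C as the opening letter, CCAT and also CCAC. The motif was searched on the sense strand only, and copies that overlap were each counted. The first 3 are cassette exons of Gphn and Gabbr1. The next 3 are 30-nt pieces of the 3′ UTR stretches with most WSC tags in Slc6a5, Slc32a1 and Gad1, which mark inhibitory interneurons. The last 2 are 100-nt stretches of receptor subunit genes, the Gabra3 coding stretch with most WSC tags and the Gabra2 intron stretch with most MN tags.
Gphn 108-nt exon, chr12:79594937-79595044, plus strand: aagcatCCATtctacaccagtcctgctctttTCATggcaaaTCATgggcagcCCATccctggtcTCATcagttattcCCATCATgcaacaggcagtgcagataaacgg
Gphn 39-nt exon, chr12:79536161-79536199, plus strand: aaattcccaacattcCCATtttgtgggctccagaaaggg
Gabbr1 135-nt exon, chr17:37191076-37191210, plus strand: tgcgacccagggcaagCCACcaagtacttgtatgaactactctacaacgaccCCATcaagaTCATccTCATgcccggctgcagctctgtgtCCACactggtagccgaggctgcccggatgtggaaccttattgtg
Slc6a5 3′ UTR site, chr7:57216431-57216460, plus strand: tgacatttTCATcctgtgcagcggcaatgg
Slc32a1 3′ UTR site, chr2:158441131-158441160, plus strand: ggggCCATtTCACagCCATtcagtgcttgg
Gad1 3′ UTR site, chr2:70438930-70438959, plus strand: tgacacatctaggCCATcTCACtgaaggaa
Gabra3 coding exon stretch, chrX:69696879-69696978, minus strand: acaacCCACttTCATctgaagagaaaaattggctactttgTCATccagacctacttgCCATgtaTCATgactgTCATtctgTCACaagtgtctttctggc
Gabra2 intron stretch, chr5:71455717-71455816, minus strand: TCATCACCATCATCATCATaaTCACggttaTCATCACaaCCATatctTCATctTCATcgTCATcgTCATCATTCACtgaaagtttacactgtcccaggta

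The Gabra2 stretch held 16 YCAY copies, as many as or more than which stood in 0.0133% of 37514 tiles of 100 nt laid over the bodies of the 26 genes, while at least 1 copy stood in 80.2% of the tiles. The Gabra3 stretch held 7, a number reached in 0.509% of the same tiles. The Gphn 108-nt exon held 7 copies, reached in 0.694% of 34735 tiles of its length, of which 82.4% held at least 1. The Gabbr1 exon held 5, reached in 10.1% of 27785 tiles of its length. Of 125078 tiles of 30 nt, 38.1% held at least 1 copy, as did the sites of Slc6a5, with 1 copy, Gad1, with 2, and Slc32a1, with 3. These are matches of letters in stretches chosen for their tags or their annotation, so the counts are descriptions.

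Depth set what could be compared. The RNA-seq libraries had 72006019 reads on genes in the male and 65625173 in the female. The WSC CLIP libraries had 2213104 to 6095995 tags and the MN CLIP libraries 65961 to 871804, so most MN values of single members rest on few tags. In the RNA-seq libraries the spinal position genes (Hox) were at 1 RPKM or more for 7 of 7, the 3 forebrain markers summed to 2.86 RPKM in the male and 2.30 in the female, and Gfap, the astrocyte filament gene, was at 477 and 523 RPKM. RPKM is the number of reads on a gene scaled to the length of its exons and to the depth of the library.

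In WSC, 22 of the 26 members reached a mean of 1 RPKM, and the glycine receptor held the highest summed level of the 11 roles. The median of these 22 members was 30.8 RPKM, and 16 of them lay above 10.3 RPKM, the median of the 11940 genes that reached 1 RPKM. Summed over its members, the mean level was 328 RPKM for glycine receptor subunits, 183 for glycine transporters, 157 for GABA-B receptor subunits, 125 for GABA-A alpha subunits, 124 for the GABA transporter, 59.7 for the vesicular transporter, 52.0 for the GABA-synthesizing enzymes, 38.1 for gephyrin, 30.8 for GABA-A beta subunits, 11.1 for the gamma subunits and 4.97 for the other GABA-A subunits. By single genes, Glrb was highest, and the next 3, Glra1, Gabbr1 and Slc6a11, overlapped in their ranges over the libraries. Subunits of the GABA-A receptor outside this set were not summed. In bulk tissue, fewer cells of a type and less RNA per cell cannot be told apart.

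**Figure D1:**
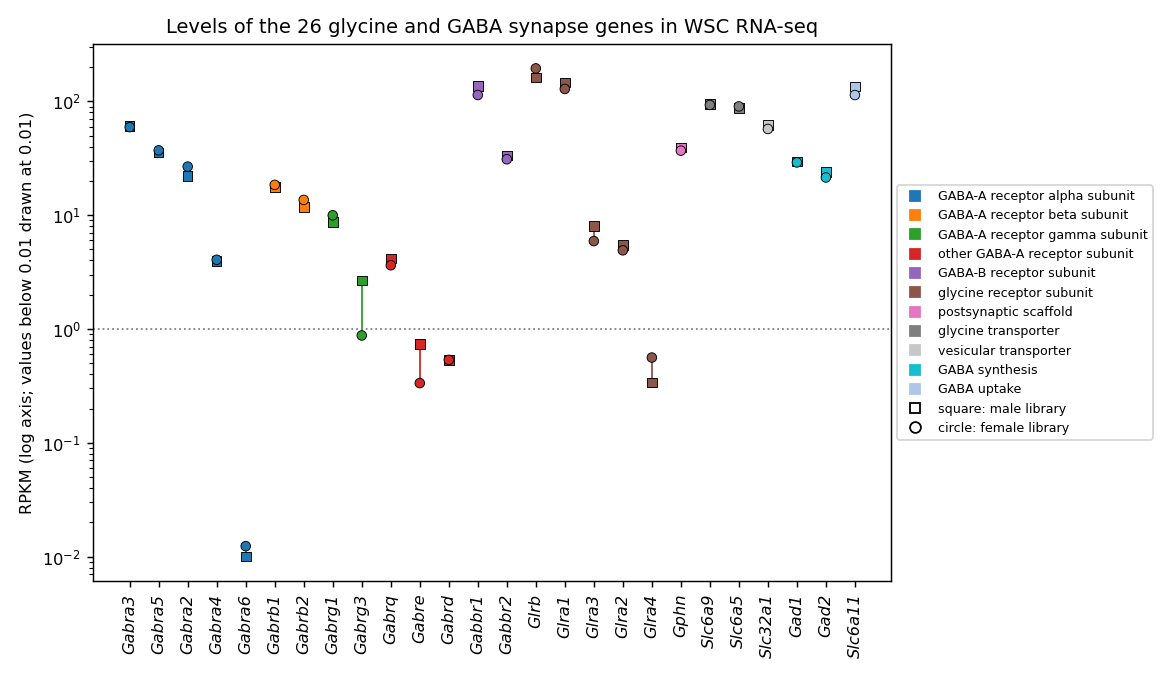
RPKM of each member in the 2 WSC RNA-seq libraries, on a log axis, 1 point per library, grouped by role. Glrb, Glra1, Gabbr1 and Slc6a11 stood above 100 RPKM in both libraries, and Gabrg3 had its points farthest apart among the members with a mean of 1 RPKM or more.

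Among the glycine receptor genes, Glrb, the beta subunit that binds gephyrin, was at 162 RPKM in the male and 195 RPKM in the female library, and Glra1, the adult alpha subunit, at 146 and 129. Their means were 178 ± 23.6 (SD, n = 2) and 137 ± 12.4, and their ranges over the libraries did not overlap. The ratio of Glrb to Glra1 was 1.11 in the male and 1.52 in the female, so their order held in both while its size did not. Glra2, the subunit of immature glycine receptors and an early known NOVA target, was at 5.45 and 4.91 RPKM, and Glra3, which is known from pain circuits of the dorsal horn, at 8.05 and 5.92. Glra1 thus stood 26.8 and 26.2 times above Glra2. Glra4 was at 0.339 and 0.561 RPKM.

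Of the genes that handle glycine and GABA, the glial glycine transporter Slc6a9 was at 94.6 and 93.1 RPKM and the neuronal one, Slc6a5, at 87.5 and 90.4. Their ratio was 1.08 (male) and 1.03 (female), and the order was the same in both. The GABA transporter Slc6a11, found mainly in astrocytes, was at 135 and 114 RPKM. Slc32a1 was at 62.2 and 57.3 RPKM. Gad1 stood at 29.5 and 29.1 RPKM and Gad2 at 23.9 and 21.5, a ratio of 1.24 in the male and 1.36 in the female.

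In the GABA-A receptor, which binds GABA between an alpha and a beta subunit, Gabra3 was the highest of the alpha genes at 60.6 and 59.4 RPKM, followed by Gabra5 at 35.7 and 37.2, Gabra2 at 22.0 and 26.7, and Gabra4 at 3.96 and 4.06. The ranges of these neighbours over the libraries did not overlap. Gabra6, known from cerebellar granule cells, had 0 reads in the male and 2 in the female. Gabrb1 was at 17.7 and 18.5 RPKM and Gabrb2 at 11.9 and 13.6. Gabrg1 was at 8.69 and 9.98, Gabrq at 4.18 and 3.63, Gabrd at 0.532 and 0.535, and Gabre at 0.737 and 0.335. The GABA-B receptor works as a pair of its subunits, and Gabbr1 at 136.5 and 113.8 RPKM stood 4.08 and 3.67 times above Gabbr2 at 33.4 and 31.0. Gphn was at 39.2 and 36.9.

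The libraries differed in 1 member by at least 1.5-fold, as did 3.49% of the 11940 genes at or above 1 RPKM. This member was Gabrg3, with 476 reads and 2.66 RPKM in the male against 143 reads and 0.877 RPKM in the female, 3.03 times higher in the male (95% counting interval 2.51 to 3.68). With 1 library of each sex no test was made, and the difference is one of 2 libraries and not of the sexes. The median log2 difference, female over male, was -0.06 over the 22 members and -0.01 over all genes. Counts of the libraries differed by more than sampling noise, with a chi-square of 40.1 per gene.

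Of the 27 other genes of inhibitory transmission in a list of transporters, metabolic enzymes and receptor partners, 26 were measured by RNA-seq and 20 reached 1 RPKM. The highest were Gabarapl1 at 272 RPKM and Gabarap at 117, which encode proteins of autophagy and membrane traffic, and Slc12a5 at 111, the chloride exporter KCC2 that makes GABA and glycine inhibitory.

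The 10 cassette exons lay in 6 members, Gabbr1, Gabra3, Gabrd, Gabre, Glrb and Gphn, and 8 of them had at least 10 junction reads in each library. The inclusion rate took the average of the 2 inclusion junctions as reads for inclusion and divided it by these and the skipping reads together. Only the 2 Gphn exons among the 8 had a rate from 5% to 95%, as did 36.6% of the 9396 covered exons. The 39-nt exon, which is not an annotated exon in GENCODE, was included at 23.3% (95% Wilson interval 16.7 to 31.7) in the male, from 29 and 27 inclusion and 92 skipping reads, and at 21.0% (14.1 to 30.1) in the female, from 18, 23 and 77. The annotated coding exon of 108 nt was included at 30.4% (22.9 to 39.0) and 27.4% (19.9 to 36.3), a mean of 28.9% ± 2.13 (SD, n = 2). The intervals of both exons overlapped between the libraries. With exon body reads added and no junctions averaged, the mean rate was 36.3% for the 39-nt and 48.0% for the 108-nt exon. Both lengths are multiples of 3, so inclusion of either keeps the reading frame by length. The 39-nt exon had 0 reads on its body in either library, so its rate rests on junction reads alone. This exon is shorter than the trimmed reads, so no read could lie wholly within it, and the 0 was fixed by read length.

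Each of the other 6 covered exons was included at 98.6% or more. The Gabbr1 135-nt exon was included at 98.6% (97.5 to 99.2) in the male and 98.7% (97.3 to 99.3) in the female, with 11 and 7 skipping reads. The Gabbr1 151-nt exon had 1 and 0 skipping reads. The Gabra3 122-nt exon and the Glrb exons of 153, 83 and 230 nt had 0 in both libraries. The Glrb 230-nt exon had reads on only 1 of its inclusion junctions (727 and 674). By Fisher's exact test with Benjamini-Hochberg adjustment at FDR ≤ 0.1, 0 of the 8 member exons differed between the libraries, against 4.26% of all 9396 covered exons. None of the 8 had an unadjusted p under 0.05. The lowest was 0.611, for the Gphn 39-nt exon, and counts of junction reads alone also gave 0.

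**Figure D2:**
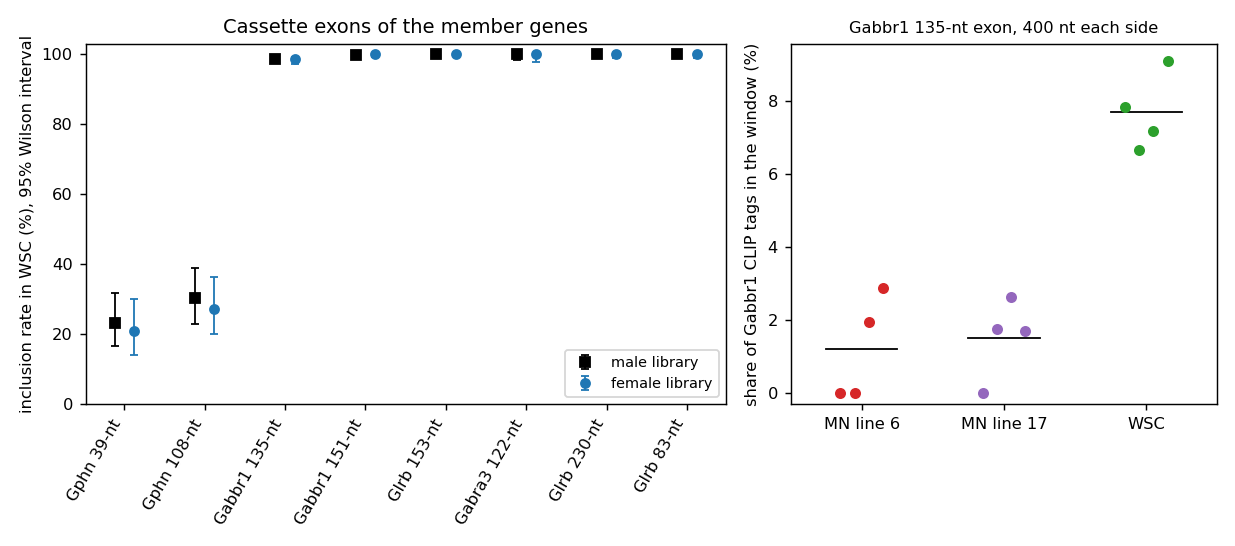
Left, inclusion rate in percent of the 8 covered cassette exons in each WSC RNA-seq library with its 95% Wilson interval. Right, share in percent of the Gabbr1 CLIP tags that lie within 400 nt of its 135-nt exon, 1 point per CLIP library. The 2 Gphn exons lie between 21.0% and 30.4% and the other 6 at or above 98.6%, and each WSC library lies above each MN library in the Gabbr1 window.

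In CLIP, tags were counted on the sense strand of annotated protein-coding gene bodies and compared between the 8 MN and the 4 WSC libraries by edgeR's quasi-likelihood test at FDR ≤ 0.01. Of the 20 members with tags enough for the test, 12 had fewer tags in MN, 4 had more and 4 passed in neither direction. Among all 4536 genes tested, 29.1% had fewer and 28.1% had more. The median log2 fold change was -0.55 over the 20 members and -0.02 over all genes. The 4 genes with the largest decreases were Slc6a5, Slc32a1, Gad1 and Gad2, the transmitter genes of inhibitory interneurons. The 4 with more tags, Gabra2, Gabrg1, Gabrb1 and Gphn, encode receptor subunits and their scaffold, and the last 2 of them lost their calls on intronic tags alone. Receptor subunits went both ways, as Glra1, Gabbr2, Gabrb2, Gabra3, Gabra5 and Gabbr1 were among the 12 with fewer tags. The 6 members with too few tags were Gabra4, Gabra6, Gabrd, Gabre, Gabrq and Glra4, which had 24, 0, 0, 2, 8 and 0 tags over the 8 MN libraries and 397, 0, 2, 31, 108 and 9 over the 4 WSC libraries.

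**Figure D3:**
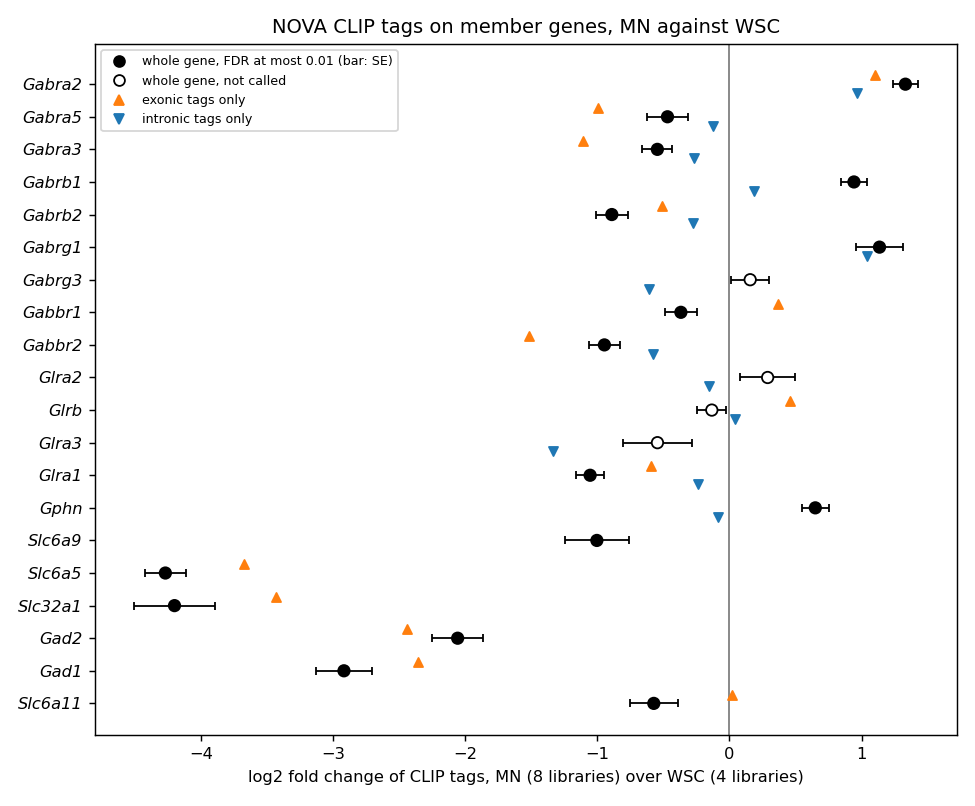
Log2 fold change of CLIP tags, MN over WSC, for the 20 tested members ordered by role. Circles are tags of the whole gene with their SE, filled where edgeR called the gene, and triangles are fits on exonic or intronic tags alone. Slc6a5, Slc32a1, Gad1 and Gad2 lie at -2.06 or lower, and Gabra2, Gabrg1, Gabrb1 and Gphn lie between 0.65 and 1.33 over the whole gene, while Gphn is at -0.09 on intronic tags.

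The groups did not overlap in 9 of these members. All 8 MN libraries lay below all 4 WSC libraries for 6 members (Gabra3, Gabbr2, Glra1, Slc6a5, Slc32a1 and Gad1), against 16.1% of all genes tested. All MN libraries lay above for 3 (Gabra2, Gabrb1 and Gphn), against 13.2%. Between the lines, edgeR called 0 of the 20 members at FDR ≤ 0.01 and 0% of all genes. At an unadjusted p under 0.05 the counts were 3 members and 215 genes, and DESeq2 called 0 members. The largest difference between lines was that of Gad1, 1.69 higher in line #17 on the log2 scale (adjusted p = 0.933, edgeR).

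The MN libraries differed from the WSC libraries over all genes in ways that run beside each of these values. The share of tags in exons was 33.4% to 46.4% in MN and 60.9% to 66.2% in WSC. Of the marker lists, the 3 tested of 7 motoneuron markers all had more tags in MN, among them Slc5a7, the choline transporter, at 2.24 and Chodl at 2.48 on the log2 scale. Chat itself was at 3.08, but it lies on the transgene's artificial chromosome. Slc17a6, the glutamate transporter of excitatory interneurons, fell by 3.53, Pax2, a transcription factor of inhibitory interneurons, fell by 1.71, and the 3 tested astrocyte markers Gfap, Aqp4 and Slc1a2 fell by 0.75, 0.71 and 1.14. The part of these in the members' values was not tested. With the 4 WSC libraries and the 4 MN libraries of the same sequencer run alone, 10 members had fewer tags and 4 had more. The libraries outside this run were all MN libraries.

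Slc6a5, which lies at chr7:57165516-57219226 on the plus strand, showed the largest difference in the set. It was at 2147, 1946, 1924 and 2179 CPM, the tags scaled to the TMM-adjusted depth of the library over the tested genes, in the 4 WSC libraries, and at 45.1 at the lowest, 89.4 at the median and 215 at the highest in the 8 MN libraries. Every MN library lay below every WSC library, and tags were 19.3-fold lower in MN (log2 fold change -4.27 ± 0.16 SE, adjusted p = 4.27e-18, edgeR). In all, 27183 WSC tags and 156 MN tags fell on the gene. The 100-nt stretch of its 3′ UTR that holds the printed site carried 22.7% of the WSC tags and 12.8% of the MN tags, 20 of 156. This stretch was chosen for its WSC tags.

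Slc32a1 was at 188, 205, 157 and 191 CPM in WSC and at 0, 12.8 and 87.8 (lowest, median, highest) in MN. The groups did not overlap, and the log2 fold change was -4.20 ± 0.30 (adjusted p = 3.44e-12, edgeR), although only 14 MN tags lay on the gene against 2493 in WSC. Gad1, which encodes GAD67, was at 246, 210, 251 and 259 CPM in WSC and at 10.2, 27.9 and 132 in MN, again without overlap. It fell by 2.92 ± 0.21 on the log2 scale (adjusted p = 4.21e-12, edgeR), with 45 MN tags. Its tags were concentrated, as 56.2% of the WSC tags lay in the 100-nt 3′ UTR stretch of the printed site. So did 17.8% of the MN tags, 8 of 45, in this stretch chosen for its WSC tags. Gad2, which encodes GAD65, was at 235, 247, 243 and 223 CPM in WSC and at 31.4, 55.7 and 242 in MN. Its groups overlapped through line #17 replicate 1, the smallest library, and it fell by 2.06 ± 0.19 (adjusted p = 3.85e-10, edgeR).

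**Figure D4:**
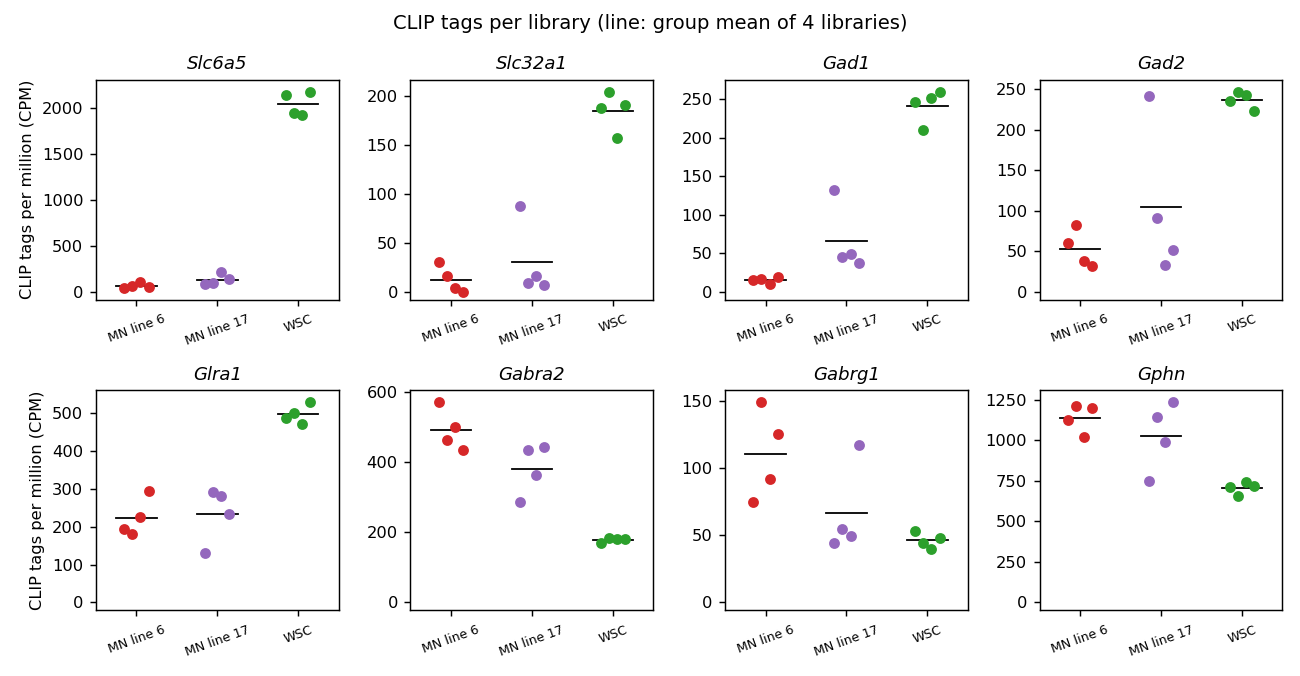
CLIP tags in CPM in each library for 8 members, with the mean of each group as a horizontal line and lines #6 and #17 shown apart. The WSC points of Slc6a5 and Slc32a1 stand above each MN point, and the MN points of Gabra2 and Gphn stand above each WSC point.

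The transporters found mainly in glia had smaller differences. Slc6a9 was at 66.2, 60.9, 69.0 and 72.5 CPM in WSC and at 0, 30.1 and 90.9 in MN, so the groups overlapped, and it fell by 1.00 ± 0.25 on the log2 scale (adjusted p = 7.54e-04, edgeR). With line #17 as the only MN line, Slc6a9 was at -0.72 and lost its call (adjusted p = 0.0411). Slc6a11 was at 121, 98.2, 104 and 97.1 CPM in WSC and at 0, 65.9 and 99.3 in MN, with a log2 fold change of -0.57 ± 0.18 (adjusted p = 0.00683, edgeR). This call was lost when line #6 replicate 4, line #17 replicate 2, 3 or 4, or WSC replicate 1 was left out, with an adjusted p of up to 0.0184, and within the 1 sequencer run (adjusted p = 0.0291). On exonic tags alone its log2 fold change was 0.02.

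Of the glycine receptor genes, only Glra1 was called. It was at 488, 499, 471 and 529 CPM in WSC and at 132, 229 and 295 in MN, with each MN library below each WSC library, and tags were 2.08-fold lower in MN (log2 fold change -1.06 ± 0.11, adjusted p = 1.54e-09, edgeR). On exonic tags alone Glra1 fell by 0.59 (adjusted p = 1.60e-04), and on intronic tags alone it was at -0.24 and lost its call (adjusted p = 0.295). Glrb, its partner subunit, was at 1083, 1084, 1045 and 1166 CPM in WSC and at 660, 988 and 1367 in MN. The MN libraries lay on both sides of the WSC range, and the log2 fold change of -0.13 ± 0.11 did not pass (adjusted p = 0.277, edgeR). On exonic tags alone Glrb was 0.46 higher in MN (adjusted p = 0.00474), so its direction depends on which tags are counted. Glra2 was at 0.29 ± 0.21 (adjusted p = 0.213) and Glra3 at -0.55 ± 0.26 (adjusted p = 0.0641), from 72 and 44 MN tags. Glra3 passed with intronic tags alone (-1.33, adjusted p = 3.75e-05). It also passed with line #6 as the only MN line (-1.54, adjusted p = 0.00232, edgeR). With line #17 alone Glra3 was at -0.07 and did not pass (adjusted p = 0.852). The difference between the lines was not called (adjusted p = 0.933, edgeR).

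Among the GABA-A subunits, calls went in both directions. Gabra2, at chr5:71352296-71487088 on the minus strand, was at 168, 184, 182 and 181 CPM in WSC and at 285, 440 and 571 in MN. Every MN library lay above every WSC library, a 2.52-fold difference (log2 fold change 1.33 ± 0.10, adjusted p = 3.80e-12, edgeR). It was higher in MN on exonic tags alone (1.10) and on intronic tags alone (0.97). The printed intron stretch held 37 of the 641 MN tags and 129 of the 2433 WSC tags. Gabra3 was at 345, 356, 358 and 374 CPM in WSC and at 182, 259 and 336 in MN, below WSC in each library, and fell by 0.55 ± 0.11 (adjusted p = 1.43e-04, edgeR). The printed coding stretch of Gabra3, chosen for its WSC tags, held 11.8% of its WSC tags and 2.03% of its MN tags, 7 of 345. The extent differed by region, as Gabra3 fell by 1.11 on exonic tags and was at -0.27 on intronic tags, which did not pass (adjusted p = 0.112). It was at -0.77 against WSC in line #6 alone and at -0.37 in line #17 alone, where the call was lost (adjusted p = 0.0357).

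Gabrg1 was at 53.3, 44.4, 39.9 and 47.9 CPM in WSC and at 43.9, 83.5 and 149 in MN. The groups overlapped at their ends, and tags were 2.20-fold higher in MN (log2 fold change 1.14 ± 0.18, adjusted p = 3.06e-06, edgeR). Gabrb1 was at 325, 322, 390 and 354 CPM in WSC and at 572, 649 and 894 in MN, without overlap, and 1.92-fold higher in MN (0.94 ± 0.10, adjusted p = 5.70e-09, edgeR). Its tags were mostly intronic, with 6.19% in exons in MN and 12.5% in WSC. In the fit on intronic tags alone Gabrb1 was at 0.19 (adjusted p = 0.105) and lost its call. Gabrb2 was at 785, 830, 704 and 799 CPM in WSC and at 337, 407 and 878 in MN, with the 1 overlapping value in line #17 replicate 1, and fell by 0.89 ± 0.12 (adjusted p = 4.27e-07, edgeR). On exonic tags alone Gabrb2 fell by 0.51 (adjusted p = 0.00222), and on intronic tags alone it was at -0.28 and lost its call (adjusted p = 0.131). Gabra5 was at 126, 144, 137 and 151 CPM in WSC and at 60.1, 92.9 and 199 in MN, with overlap, and at -0.47 ± 0.15 (adjusted p = 0.00841, edgeR). Its call held in only 3 of 12 fits without 1 library, those without line #6 replicate 2, WSC replicate 1 or WSC replicate 3, with an adjusted p of up to 0.0461 in the others, and was lost within the 1 sequencer run (0.0211). Gabrg3 was at 0.16 ± 0.14 (adjusted p = 0.330, edgeR), with groups that overlapped. On intronic tags alone, which hold most of its tags, Gabrg3 had the other sign and passed with fewer tags in MN (-0.61, adjusted p = 1.56e-04).

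Gphn, at chr12:79327642-79785754 on the plus strand, was at 709, 657, 744 and 715 CPM in WSC and at 747, 1136 and 1232 in MN. The lowest MN library lay just above the highest WSC library, and tags were 1.57-fold higher in MN (log2 fold change 0.65 ± 0.10, adjusted p = 2.93e-06, edgeR). As few as 2.95% of its MN tags and 9.86% of its WSC tags lay in exons. On intronic tags alone, scaled to the intronic tags of all genes, Gphn was at -0.09 and lost its call (adjusted p = 0.469). Its densest 100 nt, in an intron, held 11.4% of the WSC tags and 4.86% of the MN tags and 0 YCAY copies. The central 40 nt of this stretch have 3 further copies on other chromosomes. The letters of the stretch resemble ribosomal RNA, but no reference was at hand to compare them with. Whether its tags come from Gphn RNA was not tested. Without this stretch the log2 fold change was 0.77 (adjusted p = 2.59e-07, edgeR), an alternative added after the data were seen.

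Both GABA-B subunits were called with fewer tags over the whole gene, Gabbr1 with the other sign on exonic tags alone. Gabbr2 was at 540, 589, 506 and 545 CPM in WSC and at 208, 289 and 436 in MN, without overlap, and fell by 0.95 ± 0.12 on the log2 scale (adjusted p = 6.33e-08, edgeR). Gabbr1 was at 788, 704, 711 and 751 CPM in WSC and at 475, 552 and 1076 in MN, with overlap, and at -0.37 ± 0.12 (adjusted p = 0.00811, edgeR). The Gabbr1 call held in only 3 of 12 fits without 1 library, those without line #6 replicate 4, line #17 replicate 1 or line #17 replicate 3, with an adjusted p of up to 0.0522 in the others. On exonic tags alone Gabbr1 was at 0.37, in the other direction (adjusted p = 0.0116).

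The share of a member's tags that lay in exons was lower in MN than in WSC for 19 of the 20 tested members, the exception being Slc32a1 with 100% and 99.8%. The share over all genes moved the same way, as given above. Gad2 had the widest gap, with 41.3% in MN and 91.4% in WSC. Slc6a5, Gabbr1 and Glrb stayed mostly exonic in MN, at 88.5%, 94.9% and 81.6%. These shares pool the tags of all libraries of a group, and no test was made of them.

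**Figure D5:**
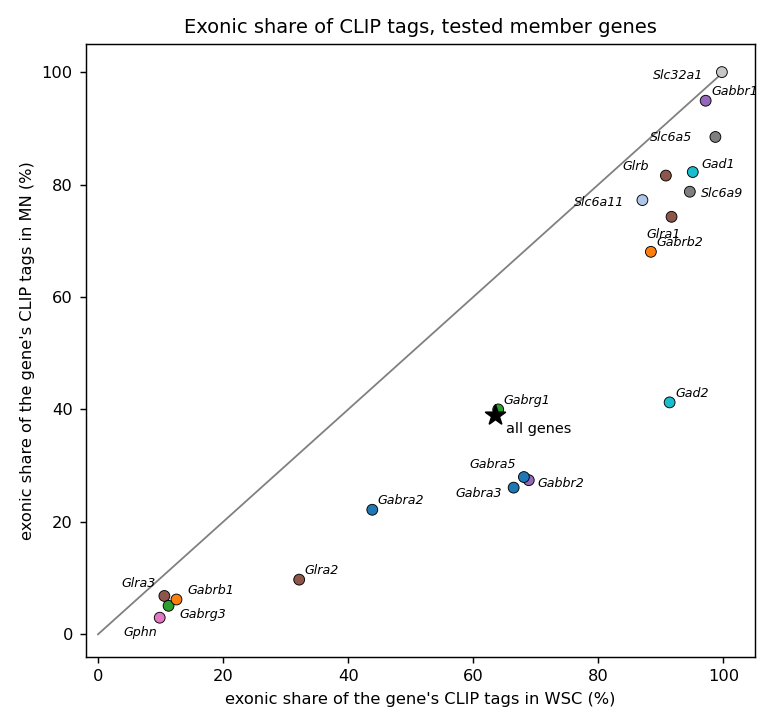
Share in percent of each tested member's CLIP tags that lie in exons, WSC on the horizontal and MN on the vertical axis, tags pooled over libraries, with the share over all genes as a star. Points below the diagonal have a lower share in MN, which holds for 19 of 20 members, and Gad2 lies farthest below it.

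Around the cassette exons, the share of the gene's tags within 400 nt of the exon was compared for windows with tags enough, which left 40 windows over all genes and 1 among the members, that of the Gabbr1 135-nt exon. The share was 7.82%, 6.66%, 7.17% and 9.09% in the 4 WSC libraries and 0%, 1.72% and 2.88% (lowest, median, highest) in the 8 MN libraries. Each MN library lay below each WSC library, and the share fell by 2.22 ± 0.38 on the log2 scale (adjusted p = 9.42e-08, edgeR, FDR ≤ 0.1). Of the 40 windows, 50% were called, so the call does not set this exon apart. The exon itself held 727 of the 728 WSC tags and 13 of the 13 MN tags of its window, out of 9868 and 766 on the gene. Without line #6 replicate 3, line #17 replicate 4 or any 1 WSC library the window fell below the filter on low counts and was not tested. At the Gphn 108-nt exon, 116 of 9520 WSC tags (1.22%) and 21 of 1626 MN tags (1.29%) lay in the window, which was not tested for want of tags. The windows of the Glrb 230-nt and 83-nt exons share most of their length, and each held 1.75% of the MN tags and 0.799% or 0.792% of the WSC tags of Glrb.

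Set against RNA levels in WSC, CLIP tags followed the abundance of the members without matching it. The share of exonic WSC tags divided by the share of RNA-seq reads had a median of 1.59 over the 22 members with a mean of 1 RPKM, and of 0.401 over 10886 genes. Of the 22, 20 lay above the median of all genes. Spearman's rho between both shares was 0.808 over the members and 0.688 over all genes, a description across genes that share libraries. The ratio was 16.0 for Gabrg3, whose RNA level differed between the RNA-seq libraries, 8.44 for Gabrb2, 4.75 for Slc6a5 and 4.43 for Gabbr2. The lowest were Slc6a9 at 0.301 and Slc6a11 at 0.272, the transporters found in glia. The RNA-seq and CLIP mice differed in strain and transgene, which cannot be told apart from the assay in this ratio. Tags were counted on GENCODE exons and reads on the exons of the authors' gene tables, which need not match in their UTRs. For Gabrg3, 593 of its 648 exonic WSC tags lay in UTRs, and its exons in the gene tables span 2484 nt. The part of this in the ratios was not tested.

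Of the 27 other genes of inhibitory transmission, 12 could be tested in CLIP, and 5 had fewer and 3 more tags in MN, with a median log2 fold change of -0.14. Kctd8 at 1.30, Kctd16 at 0.83, which both encode auxiliary subunits of the GABA-B receptor, and Gabarapl1 at 0.53 had more. Abat, which encodes the enzyme that breaks down GABA, had the smallest adjusted p among those with fewer and fell by 1.77.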

How the data were processed

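The authors trimmed the RNA-seq reads, mapped them with OLego to mm9 and kept reads with 1 position. They deposited whole-number read counts per gene with RPKM per gene, and counts of reads on each cassette exon, its 2 inclusion junctions and its skipping junction. For CLIP, the authors deposited the position of each unique tag on mm9 with a score, the number of reads behind the tag, which was not used for counting. Novoalign is named in the submitters' processing notes. For 1 line #6 library these notes name mm9 and mm10, and mm9 was used. The members and the gene lists were chosen with earlier results of these data known.

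Here, tags were assigned by midpoint to GENCODE protein-coding genes on the sense strand, tags in over 1 gene being left out. MN (8 libraries) and WSC (4) were compared with edgeR 4.0.16 (R 4.3.3, quasi-likelihood test, filterByExpr, TMM, Benjamini-Hochberg over all genes tested), with the alternatives in the closing section, DESeq2 1.42.0 among them. The window test used the tags on the rest of the gene as offset. The SE is the log2 fold change over the square root of F. The scripts were tested on simulated data. For RNA-seq, log2(RPKM + 0.1) was compared without a test, and exons with at least 10 junction reads per library by Fisher's exact test (scipy 1.17.1). Intervals were computed from read counts, so they cover counting error only and not the spread between mice. Reads carry no molecular identifiers, so copies of the same molecule could not be told apart. The labels call the CLIP libraries biological replicates. All 26 members are accounted for, with full values for those with a mean of 1 RPKM or a CLIP call. Of the other pathway genes, the 3 of highest RPKM and up to 3 of smallest adjusted p per direction are named, except for results that are not reported here.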

Additional observations from a re-analysis of the deposited data

Results flagged for a closer look

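In 4 of the 60 groups of 4 libraries that were examined, the CLIP level of a member in 1 library stood apart from the other 3 by more than Dixon's 95% limit, and chance alone gives about 1 in 20 such groups. In line #17 replicate 1, Gabrb2 was at 878 CPM, against 364 to 419 in the other libraries of the line. Slc32a1 was at 87.8 CPM in the same library, against 6.42 to 16.5. Gad1 was at 132 CPM there, against 36.9 to 49.5. This library is the smallest, with 65961 tags. In line #17 replicate 4, Gabrg1 was at 117 CPM, against 43.9 to 54.5. The calls of these 4 members held in each of the 12 fits without 1 library.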

How the results depend on the processing

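The number of members with fewer tags in MN was 12, and it was 7 in line #17 alone, where Gabra3, Gabra5, Gabbr1, Slc6a9 and Slc6a11 lost their calls, 3 with intronic tags only and 9 to 11 when 1 library was left out. The 3 with fewer on intronic tags were Gabbr2, Gabrg3 and Glra3, of which only Gabbr2 was among the 12. Slc6a5, Slc32a1, Gad1, Gad2, Slc6a9, Slc6a11 and Gabbr1 were not tested on intronic tags. The number with more was 4. It was 2 with exonic tags only, Gabra2 and Glrb, and 2 with intronic tags only, Gabra2 and Gabrg1. Glrb was not among the 4, and Gabrg1, Gabrb1 and Gphn were not tested on exonic tags. The cause of these changes in number was not tested. Members at least 1.5-fold apart between the RNA-seq libraries were 2 at a minimum of 0.5 RPKM and 3 with no filter, against 1. Member windows called were 0 with tags of identical position counted once, 3 with no filter on low counts, 3 in the 1 sequencer run that held both groups, and 0 to 1 when 1 library was left out. Log2 fold changes that changed sign were those of Gabrg3 (0.16, but -0.064 with no filter, -0.028 in line #6 alone, -0.61 with intronic tags, where it passed, and -0.074 in the 1 run), Gabbr1 (0.37 with exonic tags), Glra2 (-0.16 with intronic tags), Glrb (0.46 with exonic tags, where it passed, 0.044 with intronic tags and 0.15 with identical positions counted once), Gphn (-0.086 with intronic tags) and Slc6a11 (0.021 with exonic tags). Over all genes, 2608 had fewer tags with no filter, 549 with exonic and 386 with intronic tags, against 1320, and 540 and 346 had more with exonic and intronic tags, against 1276. With a replicate block, 9 members had fewer tags and 4 more, and Gabra5, Gabbr1 and Slc6a11 lost their calls (adjusted p = 0.0149, 0.0303 and 0.0261, edgeR). Replicates 1 of both MN lines shared a sequencer name, read without a run number, that no other library had. Replicates 2 shared a sequencer run that held no other library, while replicates 3 and 4 and all WSC libraries shared another run. Deviations of same-numbered libraries of the MN lines correlated at 0.164, 0.0514, 0.109 and 0.195, and those with WSC libraries at -0.07 to 0.03, so not every pair was over 0.1 and the numbers were not taken as pairs. Under alternatives that left no library out, 171 log2 fold changes of single members kept their direction and their side of the threshold, 21 kept their direction and lost a call, and 4 kept it and gained one, 3 of them for Glra3. Inclusion counted as the sum of both junctions and the exon body reads, with no average, gave other rates. They were 36.3% and 48.0% for the 39-nt and 108-nt Gphn exons and 99.5% for the 135-nt Gabbr1 exon. The 39-nt exon had 0 body reads, so its change came from summing the junctions alone. The fits within 1 sequencer run and without the densest Gphn stretch were chosen after seeing the data. The MN depth, 65961 to 871804 tags, limits what can be seen of members such as Gabra4, Gabrq and Slc32a1.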
